A study of Mus musculus with 2 samples.

Results

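Genes of the DNA damage and replication checkpoint were followed through the postnatal mouse testis, namely the kinases Atm, Atr, Chek1, Chek2 and Wee1 and the sensors and mediators Atrip, Topbp1, Etaa1, Mdc1 and Clspn. The list was fixed by gene name, Claspn being listed under its mouse symbol Clspn, and all 10 were found among the 32285 genes of the count tables. The tables came from 1 droplet single-cell RNA library of control testes and 1 library of Brca1 vKO testes, both at postnatal day 7. Brca1 vKO testes carried 1 floxed and 1 deleted Brca1 allele with the Vasa-Cre transgene, which acts in germ cells, so that somatic cells also carried the deleted allele. Controls were littermates whose alleles the labels do not name. The paper describes a single pair of male mice, so that each library was 1 animal. With 1 library per genotype there was no replicate check, and no p-value is given. Every interval is a 95% interval that covers the counting of unique molecular identifiers (UMIs, each a captured RNA molecule). It does not cover variation between cells or the difference between animals.

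Checkpoint signalling runs along a pair of partly separate branches. ATM is recruited to double-strand breaks, where MDC1 holds the damage signal on chromatin, and it activates the kinase CHK2. ATR is brought to stretches of single-stranded DNA at stalled forks by its partner ATRIP, is switched on by TOPBP1 or ETAA1, and activates CHK1 with the help of the fork protein claspin, the product of Clspn. WEE1 phosphorylates cyclin-dependent kinases and keeps cells from entering mitosis too early. In the testis, spermatogonia divide quickly from the first days after birth, Sertoli cells still divide at this age, and both therefore copy DNA while these kinases are present.

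Barcodes with under 750 genes or over 10% of mitochondrial UMIs were dropped, and this left 5077 control and 8712 Brca1 vKO cells with median depths of 16917 and 12970.5 UMIs. Cells were placed in classes by pairs of marker genes. The germ class (Ddx4, Dazl) held 911 control and 246 Brca1 vKO cells, the Sertoli class (Clu, Amhr2) 2339 and 4498, the stromal class (Dlk1, Dcn) 764 and 1775, and the peritubular myoid class (Acta2, Myh11) 567 and 1414. Independent markers followed the classes. The germ genes Mael, Tdrd1, Dnd1 and Sycp3 summed to 653 CPM (UMIs per 1000000 of all UMIs in the group) in control germ cells and to 11.8 CPM or less in the control somatic classes, and in the Brca1 vKO library to 453 CPM against 8.30 CPM or less. The stromal genes Pdgfra, Col1a1, Col3a1 and Tcf21 were also present in myoid cells, at 2313 CPM in the control against 4824 CPM in stromal cells. Genes of other cell types were found in the classes too. Leydig genes (Cyp17a1, Hsd3b1, Cyp11a1, Star and Insl3) summed to 91.7 CPM in control and 107 CPM in Brca1 vKO Sertoli cells, against 27.7 and 73.3 CPM in stromal cells. Endothelial genes (Pecam1, Cdh5, Flt1 and Kdr) summed to 160 and 171 CPM in stromal cells. Of the kept cells, 16 barcodes occurred in both libraries. Likely doublets were kept. Cells were called cycling when 20 S-phase and 20 G2/M genes, none of them a member, made up at least 30 of 10000 UMIs, which took 85.6% of control germ cells, 29.6% of Sertoli cells, 11.5% of stromal cells and 10.8% of myoid cells. The call rests on RNA and does not measure DNA synthesis. In the paper a minority of PLZF-positive spermatogonia took up BrdU at this age. The S-phase gene Hells was also among the leading genes of a germ cell cluster.

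Brca1 itself was the check on the genotype labels. It stood at 71.7 CPM in control and 44.8 CPM in Brca1 vKO germ cells, a ratio of 0.625 (0.557 to 0.698). The ratio was 0.864 in Sertoli, 0.587 in stromal and 0.548 in myoid cells, so that the library labelled Brca1 vKO was lower in all 4 classes. The germ ratio was no lower than the stromal and myoid ratios. The values thus go with the library labels but do not show a loss particular to germ cells. UMIs from other exons or from the deleted allele cannot be told apart in these sums.

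The first question was in which cells the members were present. A gene was counted as higher or lower in one group of cells when the ratio of CPM was at least 1.5-fold and its interval did not hold 1, among genes with at least 50 UMIs in the pair of groups. Between germ and Sertoli cells, 8 of 10 members were higher in germ cells in each library. By the same rule 41.6% of 16141 genes were higher in germ cells in the control and 34.6% of 15663 in Brca1 vKO, while 29.3% and 31.2% were lower, and the median ratio was 2.29 for the members against 1.22 for all genes in the control. The members that stood apart were Atrip, which lay close to equal, and Wee1, which was higher in Sertoli cells and passed the limit there in Brca1 vKO. Since most germ cells were called cycling and most Sertoli cells were not, cells called cycling and non-cycling were also compared apart. The limit was the same in every class. Non-cycling control germ cells had a median of 23.0 cycling-gene UMIs per 10000, against 7.40 in Sertoli cells. Like calls may therefore not be like cycle states. Among cycling cells 6 members were higher and 1 lower in the control (41% and 28.8% of genes) and 7 and 1 in Brca1 vKO (33.8% and 32.9%). Among non-cycling cells 8 were higher and 1 lower in the control (33.7% and 33.1%) and 7 and 1 in Brca1 vKO (27.1% and 23.7%). The lower member was Wee1 in each.

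**Figure D1:**
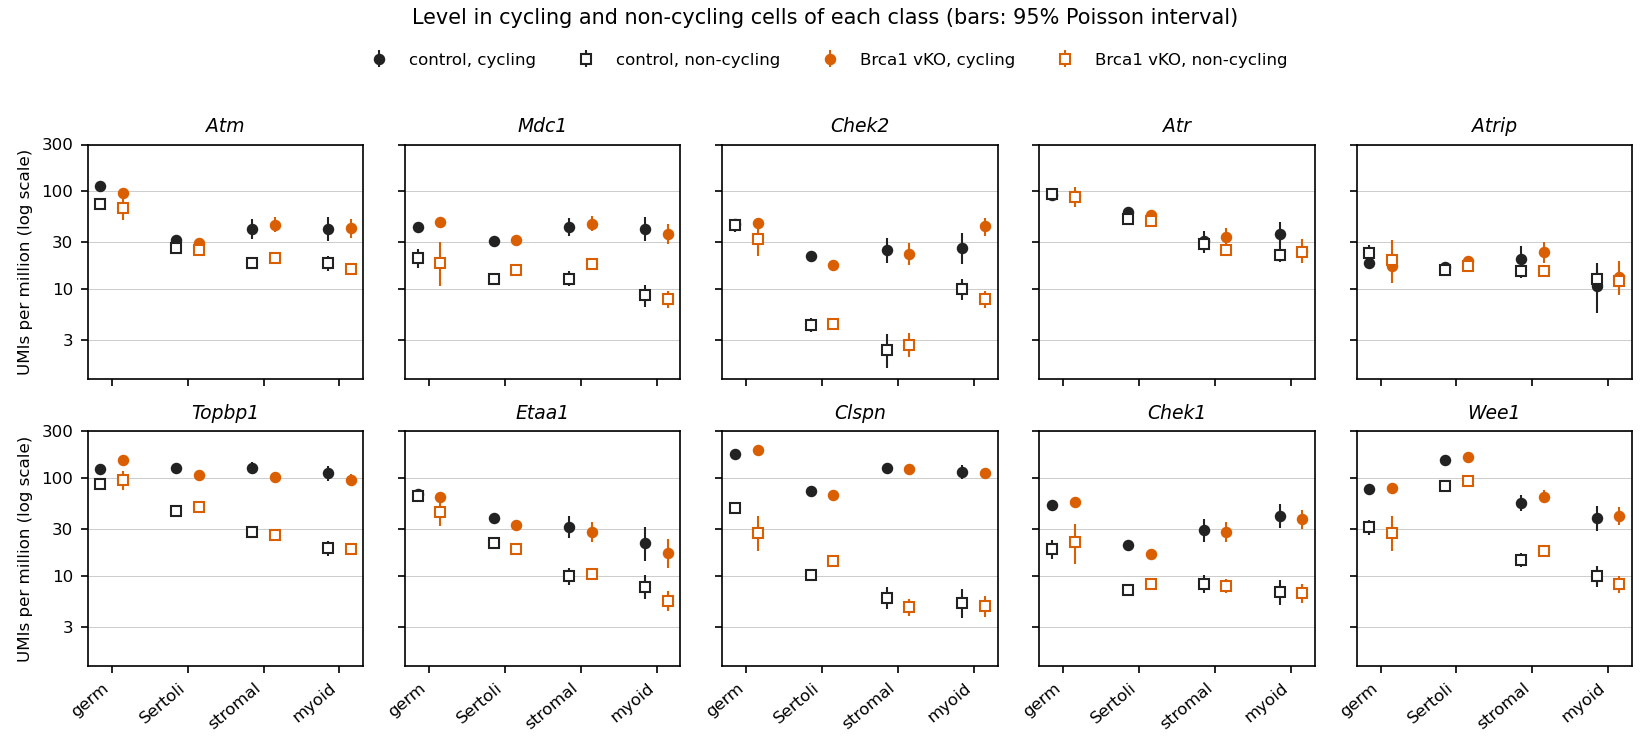
Level of each member in CPM (vertical log axis) in cycling (filled circles) and non-cycling (open squares) cells of the germ, Sertoli, stromal and myoid classes, in the control (black) and Brca1 vKO (orange) library, with bars for the 95% Poisson interval. Chek2 stays near 45 CPM in cycling and non-cycling control germ cells while it falls to between 2.36 and 9.87 in non-cycling somatic cells, and Wee1 is highest in Sertoli cells.

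On the double-strand break branch, Atm (chr9:53439149-53536740, mm10) stood at 107 CPM in control germ cells, 28.0 CPM in Sertoli cells, 21.8 CPM in stromal cells and 21.7 CPM in myoid cells. In the Brca1 vKO library the levels of Atm were 91.5, 26.7, 23.6 and 19.3 CPM in the same order. Germ cells were thus above every somatic class in both libraries, by 3.83-fold (3.60 to 4.07) over Sertoli cells in the control, while the 3 somatic classes lay close together. Mdc1 (chr17:35841515-35859670) was at 39.3 CPM in control germ cells and between 13.5 and 18.8 CPM in the somatic classes, with a germ over Sertoli ratio of 2.09 in the control and 2.12 in Brca1 vKO.

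Chek2 (chr5:110839979-110874145), the effector kinase of the ATM branch, was at 45.8 CPM in control and 46.0 CPM in Brca1 vKO germ cells. Its level was 10.3 and 9.08 CPM in Sertoli cells, 5.76 and 5.13 CPM in stromal cells and 12.4 and 12.7 CPM in myoid cells. The order germ, then myoid and Sertoli, then stromal was the same in both libraries. The germ over Sertoli ratio was 4.44 (4.02 to 4.90) in the control. It was 2.12 (1.89 to 2.38) when only cycling cells were taken, and 10.5 (8.42 to 13.04) among non-cycling cells, where it was 7.47 (4.87 to 11.02) in Brca1 vKO. The germ genes that served as a check were at 1.81% of their germ level in control Sertoli cells, which may be free RNA. That share of the germ level of Chek2 amounts to 0.827 CPM, below the 4.26 CPM measured in non-cycling control Sertoli cells.

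On the fork branch, Atr (chr9:95857597-95951781) was at 92.1 CPM in control germ cells, 54.8 CPM in Sertoli cells, 28.8 CPM in stromal cells and 24.4 CPM in myoid cells, and at 88.7, 51.8, 26.0 and 23.8 CPM in Brca1 vKO. Germ cells exceeded Sertoli cells by 1.68-fold (1.60 to 1.77) in the control, a smaller ratio than that of Atm. A pair of genes lies over Atr on the opposite strand, 1700065D16Rik and Gm16794, and both were at 3.67 CPM or less in every class and library. Atrip (chr9:109057933-109074124), whose product binds ATR, was the most even member. It was at 18.9 CPM in germ cells, 15.9 CPM in Sertoli cells, 16.0 CPM in stromal cells and 12.4 CPM in myoid cells of the control, and the germ over Sertoli ratio was 1.19 (1.07 to 1.32) in the control and 0.971 (0.812 to 1.15) in Brca1 vKO. Trex1 overlaps Atrip on the same strand and had 0 UMIs in all 4 classes of both libraries, so that molecules of Trex1 and Atrip may not be told apart in these counts.

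The ATR activators were both higher in germ cells. Etaa1 (chr11:17938756-17953875) was at 68.3 CPM in germ, 27.5 CPM in Sertoli, 13.2 CPM in stromal and 9.75 CPM in myoid cells of the control, and its germ over Sertoli ratio was 2.48 (2.32 to 2.66). Topbp1 (chr9:103305215-103350428) was at 118 CPM in control germ and 74.0 CPM in control Sertoli cells, a ratio of 1.60 (1.53 to 1.67). This difference was not seen among cycling cells of the control, where Topbp1 was at 123 CPM in germ and 127 CPM in Sertoli cells, a ratio of 0.971 (0.921 to 1.02). In Brca1 vKO the ratio among cycling cells was 1.42 (1.33 to 1.52), with 154 CPM in germ and 108 CPM in Sertoli cells.

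Clspn (chr4:126556935-126593903) had the largest germ over Sertoli ratio of the 10 in both libraries, with an interval that overlapped that of Chek2. It was at 157 CPM in control germ cells against 32.2 CPM in Sertoli, 24.3 CPM in stromal and 22.0 CPM in myoid cells, and at 174 CPM in Brca1 vKO germ cells against 19.3 to 32.9 CPM in the somatic classes. The germ over Sertoli ratio was 4.89 (4.63 to 5.17) in the control and 5.29 (4.97 to 5.63) in Brca1 vKO. Chek1 (chr9:36708482-36727065), the effector kinase of the ATR branch, was at 48.4 CPM in control germ cells and between 11.4 and 12.0 CPM in the 3 somatic classes, whose intervals overlapped. In Brca1 vKO it was at 52.9 CPM in germ cells and between 10.3 and 11.3 CPM in the somatic classes.

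Wee1 (chr7:110122046-110143286) had the opposite order between germ and Sertoli cells, with germ cells still above stromal and myoid cells. It was at 107 CPM in control Sertoli cells, 71.2 CPM in germ cells, 20.7 CPM in stromal cells and 14.2 CPM in myoid cells, and at 119, 74.3, 23.6 and 12.7 CPM in Brca1 vKO. The germ over Sertoli ratio was 0.668 (0.635 to 0.702) in the control, just inside the 1.5-fold limit, and 0.627 (0.577 to 0.680) in Brca1 vKO, past it. The Brca1 vKO call was lost, at 0.671 (0.618 to 0.729), when mitochondrial, haemoglobin and ribosomal protein genes were left out of the total. With only cycling cells the ratio fell to 0.513 in the control and 0.485 in Brca1 vKO, and with non-cycling cells to 0.376 and 0.298. The gene 1600010M07Rik lies over Wee1 on the opposite strand and was at 53.7 CPM in control Sertoli and 59.7 CPM in control germ cells. Whether the counting used strand is not given in the sources used here, and molecules of the pair may not be told apart.

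Members were next compared between cycling and non-cycling cells of the same class. In control Sertoli cells 7 of 10 members were higher in cycling cells, where 6.9% of 13552 genes were, and none was lower (4.72% of genes). In control stromal cells it was 8 of 10 (12.9% of genes, and 8.22% lower) and in control myoid cells 9 of 10 (12.7%, and 6.76% lower). In control germ cells it was 5 of 10 (13.1% of 13862 genes, and 6.44% lower). The Brca1 vKO library gave 7 in Sertoli cells (6.14%), 9 in stromal cells (12.3%), 8 in myoid cells (14.2%) and 5 in germ cells (6.14%), again with none lower, where 3.96%, 7.49%, 6.7% and 4.59% of genes were. The groups were placed differently in the classes. Non-cycling control germ cells had a median of 23.0 cycling-gene UMIs per 10000, and 99 of the 131 lay within 1.5-fold of the limit, whereas non-cycling Sertoli cells had a median of 7.40.

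**Figure D2:**
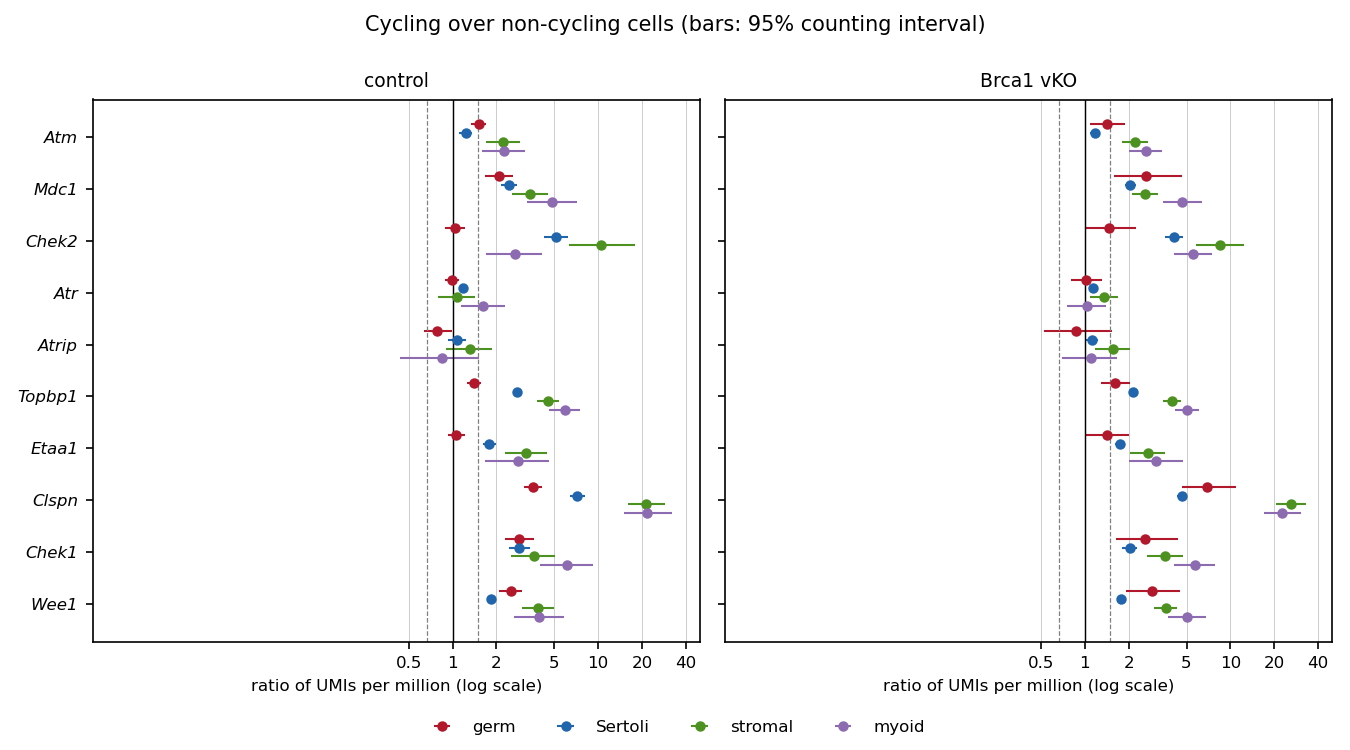
Ratio of CPM in cycling over non-cycling cells (horizontal log axis) for each member in the 4 classes (colours), left for the control and right for the Brca1 vKO library, with bars for the 95% counting interval, a solid line at 1 and dashed lines at 1.5-fold. Clspn lies above 20-fold in stromal and myoid cells of both libraries, and Chek2 in control germ cells at 1.03.

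Clspn followed the cycling genes most closely. Its level in cycling and non-cycling cells was 175 and 49.1 CPM in control germ cells, 73.4 and 10.2 CPM in Sertoli cells, 127 and 5.94 CPM in stromal cells, and 115 and 5.30 CPM in myoid cells. The ratios were 3.57 (3.11 to 4.12), 7.18 (6.40 to 8.07), 21.4 (16.1 to 28.7) and 21.7 (15.0 to 32.3). In Brca1 vKO they were 6.94, 4.67, 26.1 and 22.8 in the same order. Possible free germ RNA, estimated from the germ check genes as for Chek2, is a larger part of the low Clspn levels. It amounts to 2.84 of 10.2 CPM in non-cycling control Sertoli cells, 1.66 of 5.94 CPM in stromal and 1.78 of 5.30 CPM in myoid cells. Its part in the somatic ratios was not tested. Chek1 rose from 18.6 to 53.4 CPM between non-cycling and cycling control germ cells, a ratio of 2.86 (2.28 to 3.64), and by 2.88-fold in Sertoli, 3.60-fold in stromal and 6.08-fold in myoid cells. Topbp1 was 2.76-fold higher in cycling Sertoli cells, 4.52-fold in stromal and 5.89-fold in myoid cells of the control, but 1.40-fold (1.26 to 1.57) in germ cells, below the limit. The germ ratio of Topbp1 passed the limit in Brca1 vKO, at 1.61 (1.29 to 2.04), and in the control at a mitochondrial limit of 5%, at 1.61 (1.27 to 2.07). With a cycling limit of 45 per 10000 it was 1.26 (1.09 to 1.47) in Brca1 vKO and was not called.

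Chek2 behaved differently in germ and somatic cells. In the control it was at 46.0 CPM in cycling and 44.6 CPM in non-cycling germ cells, a ratio of 1.03 (0.883 to 1.21). Its ratio was 5.09 (4.22 to 6.17) in Sertoli cells, 10.5 (6.33 to 17.8) in stromal cells and 2.67 (1.69 to 4.13) in myoid cells, and none of these intervals overlapped that of germ cells. The control germ groups differed in make-up. GFRA1/RET-high cells, a germ subset described further on, were 78 of the 131 non-cycling and 256 of the 780 cycling cells. Chek2 was higher in this subset than in KIT/STRA8-high control cells. Within the subset it was at 56.9 CPM in cycling cells and 54.5 CPM in all cells, so that non-cycling cells of the subset lay lower. The ratio of 1.03 is that of all control germ cells together, and the part of the make-up in it was not tested. In the Brca1 vKO library the germ ratio was 1.48 (1.004 to 2.26), with 28 UMIs in the 33 non-cycling germ cells, against 4.07 to 8.51 in the somatic classes. When cells were called cycling by S and G2/M scores above 0, the germ ratio of Chek2 in the control was 1.57 (1.05 to 2.46), past the limit. In Brca1 vKO it also passed the limit under 3 alternatives, at 1.56 with no filter on cells, 1.59 with a cycling limit of 45 per 10000 and 1.80 with TMM scaling. Etaa1 had a ratio of 1.06 (0.935 to 1.21) in control germ cells and of 1.78 in Sertoli, 3.19 in stromal and 2.79 in myoid cells. In Brca1 vKO its germ ratio was 1.42 (1.02 to 2.02), which overlapped that of Sertoli cells, 1.73 (1.60 to 1.88), and it passed the limit with TMM scaling (1.72) and with a cycling limit of 20 per 10000 (1.63).

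Mdc1 was higher in cycling cells of all 4 control classes, from 2.07-fold in germ cells to 4.82-fold in myoid cells, but the germ call was lost at a mitochondrial limit of 5% (1.12, 0.782 to 1.65), at a cycling limit of 45 per 10000 (1.38, 1.195 to 1.60) and with cells thinned to 2000 UMIs (1.205, 0.542 to 3.16). In Brca1 vKO germ cells the ratio of Mdc1 was 2.61, and the call was lost at the mitochondrial limit of 5% (1.30, 0.351 to 10.9) and with scores (1.82, 0.947 to 4.01). Wee1 was higher in all 4, from 1.83-fold in Sertoli cells to 3.92-fold in myoid cells. Atm was 1.51-fold (1.35 to 1.70) higher in cycling control germ cells and 2.23-fold and 2.25-fold higher in stromal and myoid cells, and 1.23-fold (1.11 to 1.36) in Sertoli cells. The Atm value in germ cells lay at the limit, and was 1.31 when the limit for cycling cells was 45 per 10000. Atr was at 92.0 and 92.9 CPM in cycling and non-cycling control germ cells, a ratio of 0.9898 (0.889 to 1.10), and Atrip at 18.2 and 23.1 CPM, a ratio of 0.786 (0.631 to 0.987). Of the somatic classes, only control myoid cells passed the limit for Atr (1.63, 1.14 to 2.29, from 44 UMIs in cycling cells) and only Brca1 vKO stromal cells for Atrip (1.57, 1.18 to 2.05). Neither held with cycling cells called by scores, at 1.43 for both genes, and Atr was at 1.09 with classes from clusters and Atrip at 1.40 with TMM scaling.

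Cells were also set out by the share of cycling genes, so that germ and Sertoli cells of like share could be read side by side. A like share need not be a like cycle state. At 10 to 20 per 10000, Chek1 was at 12.1 CPM (5.54 to 23.0, from 9 UMIs) in 30 control germ cells and at 11.8 CPM in 370 control Sertoli cells. At 40 to 80 per 10000 it was at 56.1 CPM in 533 germ cells and 19.8 CPM in 289 Sertoli cells. Chek2 was already at 40.4 CPM (27.2 to 57.7) in germ cells at the low share, against 5.05 CPM (3.68 to 6.75) in Sertoli cells, and at 55.8 and 29.9 CPM above 80 per 10000. Clspn rose from 32.3 to 190.2 CPM between the low share and the 40 to 80 range in germ cells and from 14.6 to 74.1 CPM in Sertoli cells. Wee1 stayed lower in germ cells throughout, at 21.5 against 93.6 CPM at the low share and at 92.8 against 178.7 CPM above 80 per 10000.

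**Figure D3:**
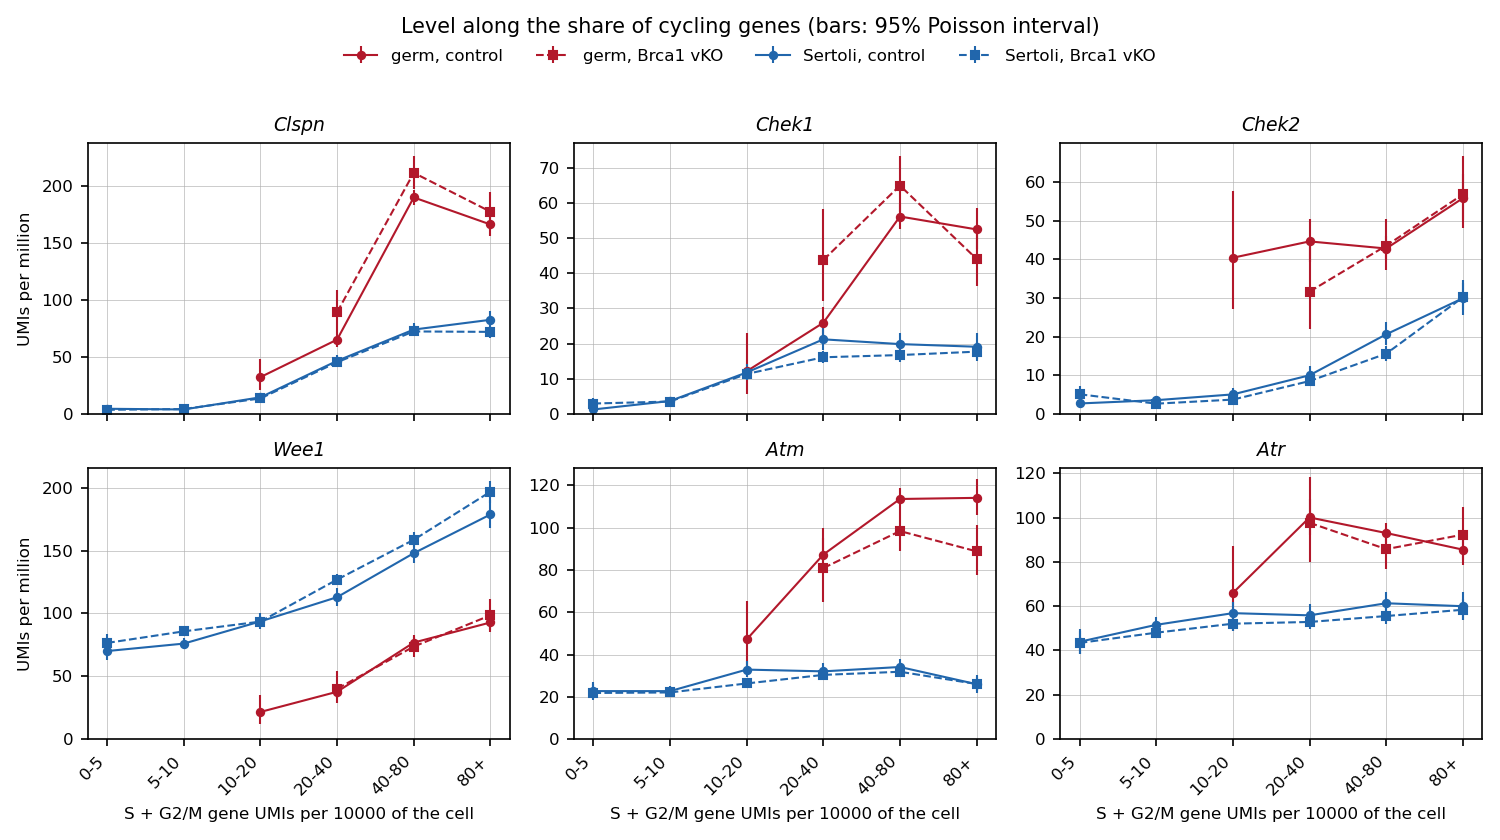
Level in CPM (vertical axis from 0) of 6 members in germ (red) and Sertoli (blue) cells of the control (circles, solid) and Brca1 vKO (squares, dashed) library, grouped by the S and G2/M gene UMIs per 10000 of each cell (horizontal axis), with bars for the 95% Poisson interval. Chek2 in control germ cells is already at 40.4 in the 10 to 20 group, and Wee1 in Sertoli cells lies above germ cells in every group.

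Since several members moved with the cycling genes, promoter windows were read for letters of E2F and related sites. RefSeq windows of GRCm38.p6, from 250 bases before to 50 after the start, were found for 9 of the 10 members, and for Wee1 none was used here. Where a gene had several windows, only the one listed first was read. The string GGCGGGAA, on either strand, was in 2 of 9 members (Chek1, Mdc1) and in 2.24% of 27025 promoters. The string TTTCGCGC was in Topbp1 and Clspn and in 0.318% of promoters, and none of the 9 held TTTGGCGC (0.537%) or TTTGAA (18.1%). The string CCAAT was in 6 of 9 members and in 37.9% of promoters. The stretches that hold the rarer strings in the members higher in cycling cells are shown in capitals marking the string, with CCAAT (here as ATTGG) marked in the upstream stretch of Clspn. They are chr4:126556835-126556934 and chr4:126556990-126557019 of Clspn (+ strand), chr9:103305115-103305214 of Topbp1 (+), chr17:35841398-35841497 of Mdc1 (+) and chr9:36726609-36726638 of Chek1 (- strand).
Clspn upstream: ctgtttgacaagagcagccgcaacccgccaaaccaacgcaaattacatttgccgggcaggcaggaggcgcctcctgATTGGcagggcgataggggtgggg
Clspn start: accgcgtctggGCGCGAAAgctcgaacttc
Topbp1 upstream: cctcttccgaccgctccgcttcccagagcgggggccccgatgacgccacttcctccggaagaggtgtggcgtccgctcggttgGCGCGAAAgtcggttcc
Mdc1 upstream: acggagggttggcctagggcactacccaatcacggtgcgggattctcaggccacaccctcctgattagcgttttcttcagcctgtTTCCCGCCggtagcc
Chek1 start: cagcatgacgcaagcaggttttGGCGGGAA
Of these, the Topbp1 string began 129 bases and the Mdc1 string 15 bases before the RefSeq start, and those of Clspn and Chek1 lay at positions 22 and 43 after it. These positions depend on the window read. The Chek1 stretch ends at 36726638, inside the annotated gene, which runs to 36727065 on the - strand. A match is a description of letters in the window and no measurement of binding.

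Cycling cells were divided into those in which the G2/M genes alone made up at least 30 of 10000 UMIs and the remaining cells, called S-gene-leaning. The S-gene-leaning cells also had a lower share of cycling genes. In Sertoli cells their median was 41.0 per 10000 in the control and 37.8 in Brca1 vKO, against 86.5 and 83.6 in G2/M-gene-high cells. Of these S-gene-leaning cells 61% and 74.5% lay within 1.5-fold of the cycling limit. The part of this in the ratios was not tested. Few members passed the limit. In germ cells it was 0 of 10 in the control (4.93% of genes higher, 4.33% lower) and 1 higher and 1 lower in Brca1 vKO (3.97% and 3.54%), and in Sertoli cells 1 higher and 1 lower in the control (3.85% and 4.52%) and 1 higher in Brca1 vKO (3.54% and 3.29%). In stromal cells 1 of the 8 members with enough UMIs was lower in the control (11.3% and 7.76%) and 2 of 10 in Brca1 vKO (8.01% and 8.42%). In myoid cells 1 of 5 was higher in the control (12% and 4.72%), and 1 of 8 was higher and 2 were lower in Brca1 vKO (9.4% and 5.38%). Chek1 was lower in the G2/M-gene-high cells. In control Sertoli cells the ratio of G2/M-gene-high over S-gene-leaning cells was 0.544 (0.444 to 0.667) for Chek1, past the limit. In Brca1 vKO Sertoli cells it was 0.704 (0.599 to 0.827), short of the limit. Stromal cells gave 0.460 (0.262 to 0.805) and 0.371 (0.229 to 0.595) in the control and Brca1 vKO library, past the limit in both, and Brca1 vKO myoid cells 0.411 (0.256 to 0.661). Germ cells differed between libraries, at 0.958 (0.860 to 1.07) in the control and 0.592 (0.484 to 0.722) in Brca1 vKO.

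Chek2 went the other way in Sertoli cells, with ratios of 1.67 (1.32 to 2.13) in the control and 2.17 (1.79 to 2.64) in Brca1 vKO, and 2.44 (1.32 to 4.93) in Brca1 vKO myoid cells. In germ cells its ratio was 1.18 (1.05 to 1.33) and 1.17 (0.939 to 1.46). Wee1 was slightly higher in G2/M-gene-high cells, by 1.22-fold (1.13 to 1.33) in Sertoli and 1.24-fold (1.13 to 1.36) in germ cells of the control, and by 1.21-fold (1.15 to 1.28) and 1.31-fold (1.11 to 1.56) in Brca1 vKO, all below the limit. The member called higher in Brca1 vKO germ cells was Atrip, at 20.9 against 12.1 CPM, a ratio of 1.74 (1.17 to 2.61) from 86 and 38 UMIs. The lower member in that class was Chek1, and in Brca1 vKO myoid cells Topbp1 was lower besides Chek1, at 0.659 (0.488 to 0.896). Atm and Clspn leaned to the S-gene-leaning Sertoli cells, at 0.685 (0.581 to 0.808) and 0.691 (0.621 to 0.770) in the control, near but short of the limit, and at 0.840 and 0.841 in Brca1 vKO. In stromal cells Atm was at 0.627 (0.391 to 1.01) in the control and 0.322 (0.220 to 0.467) in Brca1 vKO. Myoid cells went against the other classes for Clspn in the control, at 2.23 (1.43 to 3.62), from 21 S-gene-leaning cells, and not in Brca1 vKO, at 0.859 (0.644 to 1.15).

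**Figure D4:**
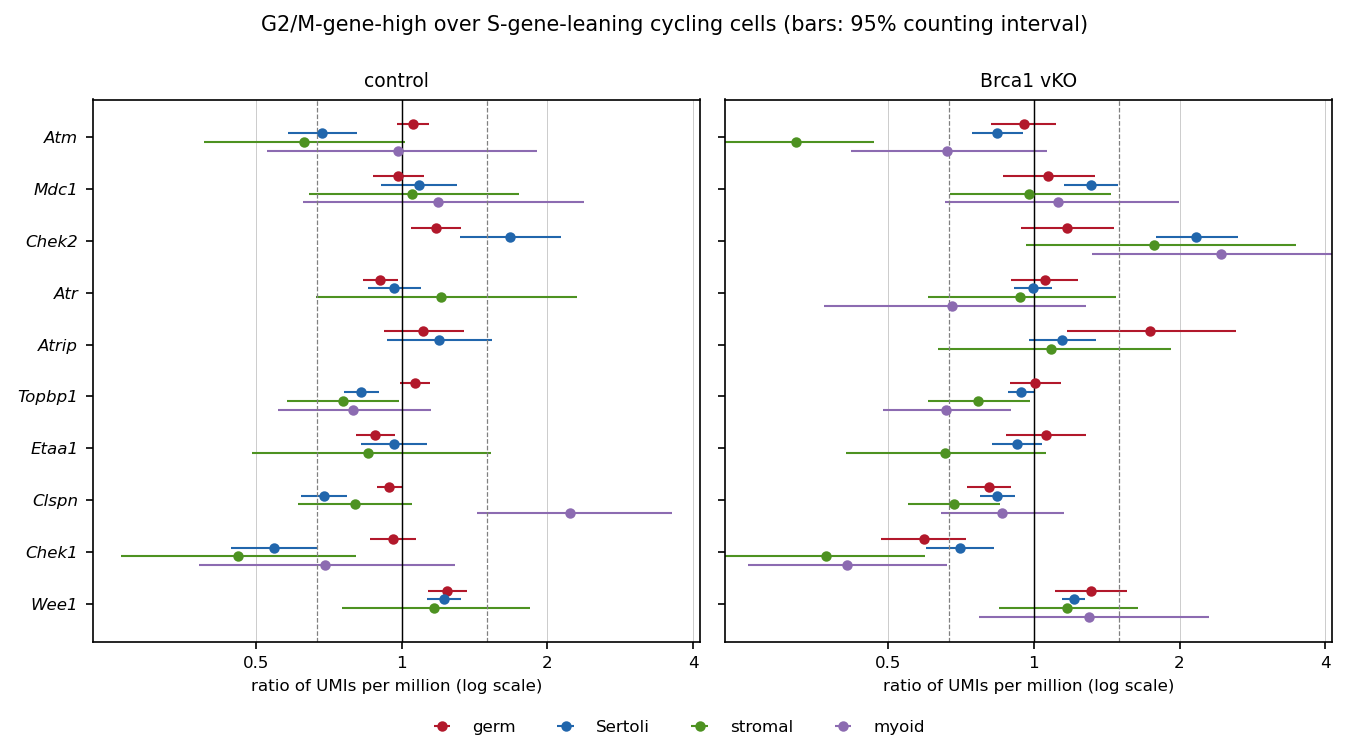
Ratio of CPM in G2/M-gene-high over S-gene-leaning cycling cells (horizontal log axis) for each member and class (colours), left for the control and right for the Brca1 vKO library, with bars for the 95% counting interval, and no point where the pair of groups held under 50 UMIs. Chek1 lies at or below 0.704 in the somatic classes of both libraries, and Chek2 in Sertoli cells at 1.67 and 2.17.

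Germ cells were divided by whether Gfra1 and Ret, receptors of undifferentiated spermatogonia, or Kit and Stra8, markers of differentiating spermatogonia, gave more UMIs. The control held 334 GFRA1/RET-high and 308 KIT/STRA8-high cells, and Brca1 vKO 186 and 17. The other germ cells, 269 and 43, had fewer than 2 UMIs or a tie, and a median depth of 3852 and 3542 UMIs. The genes Id4, Etv5, Lhx1 and Nanos2 of undifferentiated cells summed to 178 CPM in GFRA1/RET-high and 20.6 CPM in KIT/STRA8-high control cells. Sohlh1, Sohlh2, Dmrtb1 and Prdm9 summed to 175 and 352 CPM, so the split was one of degree for the latter. In Brca1 vKO the undifferentiated genes summed to 367 CPM in GFRA1/RET-high and 104.6 CPM in KIT/STRA8-high cells, and the latter genes to 91.8 and 229 CPM. The KIT/STRA8-high cells thus kept more RNA of undifferentiated genes in Brca1 vKO than in the control. The part of this in the Brca1 vKO subset ratios was not tested. Chek2 was the 1 member of 10 that passed the limit in the control, where 13.8% of 13677 genes were higher in GFRA1/RET-high cells. It stood at 54.5 CPM in GFRA1/RET-high and 34.6 CPM in KIT/STRA8-high cells, a ratio of 1.58 (1.40 to 1.78), and at 56.9 and 34.6 CPM among cycling cells. By cycling cells alone it was also the 1 member called, with 14.1% of genes higher. Its ratio in Brca1 vKO was 0.912 (0.627 to 1.37), with 30 UMIs in the 17 KIT/STRA8-high cells. Atrip leaned the same way in the control, at 1.35 (1.12 to 1.62). Clspn leaned to KIT/STRA8-high cells, at 139 against 192 CPM, a ratio of 0.725 (0.683 to 0.769), as did Wee1 (0.808), Atm (0.813), Chek1 (0.829) and Atr (0.870), all within the limit. None of the 10 was lower by the rule, where 13.9% of genes were. In Brca1 vKO Topbp1 was the 1 member higher in GFRA1/RET-high cells (8.31% of genes) and none was lower (5.88%). It was at 154 CPM against 81.0 CPM, a ratio of 1.91 (1.43 to 2.60) from 48 UMIs in the KIT/STRA8-high cells, and was not called with a mitochondrial limit of 5%.

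The last comparison set Brca1 vKO against control cells of the same class. In germ cells none of the 10 members passed the limit, where 9.49% of genes were higher and 13.2% lower. The ratios ran from 0.855 (0.789 to 0.927) for Atm to 1.25 (1.17 to 1.34) for Topbp1. Intervals that did not hold 1 were those of Topbp1, at 118 CPM in the control and 148 CPM in Brca1 vKO, of Mdc1 (1.14, 1.01 to 1.29), of Clspn (1.11, 1.04 to 1.18), of Etaa1 (0.902, 0.817 to 0.995) and of Atm. Chek1 was at 1.09 (0.978 to 1.22), Chek2 at 1.01 (0.894 to 1.13), Wee1 at 1.04 (0.952 to 1.14), Atr at 0.963 (0.886 to 1.05) and Atrip at 0.919 (0.759 to 1.11). A ratio of 1.5 or of its inverse thus lay outside the counting interval of every member in germ cells.

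**Figure D5:**
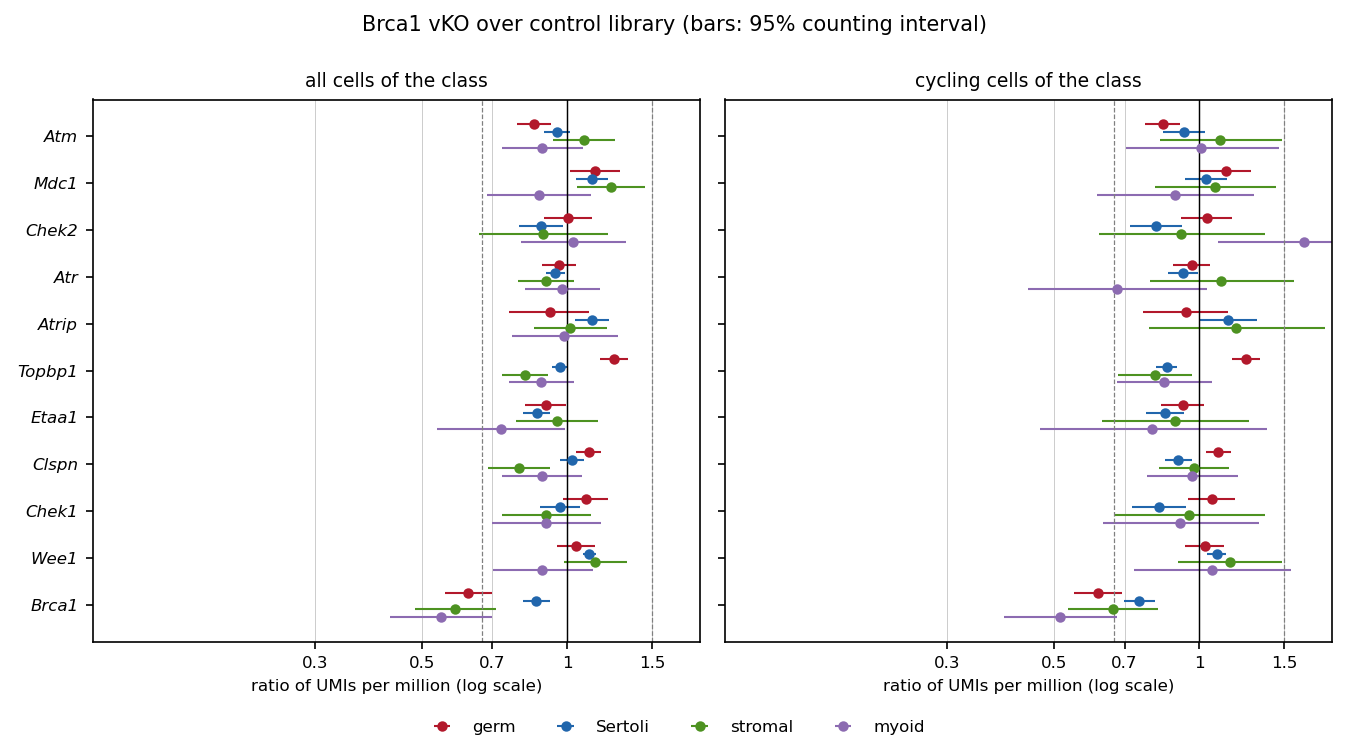
Ratio of CPM in the Brca1 vKO over the control library (horizontal log axis) for the members and for Brca1 in the 4 classes (colours), left for all cells of a class and right for its cycling cells, with bars for the 95% counting interval and dashed lines at 1.5-fold. All 10 members lie between the dashed lines in all cells of the 4 classes, and Brca1 lies at 0.625 in germ cells.

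The make-up of the germ class differed between the libraries, since 36.7% of control and 75.6% of Brca1 vKO germ cells were GFRA1/RET-high. Within GFRA1/RET-high cells, 0 of 10 passed the limit (8.75% of genes higher, 11.3% lower), as within KIT/STRA8-high cells (5.95% and 7.46%), of which Brca1 vKO held 17. Clspn was at 139 CPM in the control and 176 CPM in Brca1 vKO, a ratio of 1.27 (1.18 to 1.36). Topbp1 was at 125 and 154 CPM, a ratio of 1.23 (1.15 to 1.33), while Etaa1 was at 0.826 (0.738 to 0.923) and Chek2 at 0.847 (0.744 to 0.962). GFRA1/RET-high cells were not alike in the libraries. Id4, Etv5, Lhx1 and Nanos2 summed to 178 CPM in the control and 367 CPM in Brca1 vKO, and Sohlh1, Sohlh2, Dmrtb1 and Prdm9 to 175 and 91.8 CPM. Cycling cells were 76.6% and 84.4%. The part of this was not tested. Among cycling cells of the subset 0 of 10 were called (8.19% of genes higher, 11.2% lower), with ratios from 0.824 to 1.21. Non-cycling germ cells gave 1 call (9.79% of genes higher, 8.23% lower), Clspn, at 49.1 CPM in the control and 27.7 CPM in Brca1 vKO, a ratio of 0.564 (0.353 to 0.862) that rests on 24 UMIs in 33 Brca1 vKO cells. These groups had a median of 23.0 cycling-gene UMIs per 10000 in the control and 19.7 in Brca1 vKO. Of their cells 75.6% and 48.5% lay within 1.5-fold of the cycling limit. The part of this in the Clspn ratio was not tested. RNA of other cells also differed between the germ classes. Neutrophil genes (S100a8, S100a9, Ngp and Camp) summed to 2.84 CPM in control and 222 CPM in Brca1 vKO germ cells, and haemoglobin genes to 724 and 43.4 CPM. Their part in the ratios was not tested.

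In the somatic classes none of the members passed the limit in all cells of a class, where 3.25% of genes were higher and 3.15% lower in Sertoli cells, 2.41% and 2.02% in stromal cells, and 3.2% and 1.77% in myoid cells. Ratios ran from 0.866 (Etaa1) to 1.13 (Atrip and Mdc1) in Sertoli cells, from 0.795 (Clspn) to 1.23 (Mdc1) in stromal cells and from 0.729 (Etaa1) to 1.03 (Chek2) in myoid cells. Among cycling myoid cells (3.75% of genes higher, 2.87% lower) Chek2 was at 26.3 CPM in the control and 43.5 CPM in Brca1 vKO, a ratio of 1.65 (1.09 to 2.56) from 32 and 89 UMIs. The neutrophil genes differed between the libraries in these classes too, at 4.42 and 119 CPM in control and Brca1 vKO Sertoli cells, 0.560 and 73.3 CPM in stromal cells and 0.875 and 252 CPM in myoid cells. The haemoglobin genes were at 984 and 221 CPM, 1308 and 119 CPM, and 2436 and 96.0 CPM in the same order. Their part in the somatic ratios was not tested. In non-cycling Sertoli cells 0 of 10 members were called (3.54% of genes higher, 3.15% lower), with 6 intervals above 1 and 1 below. The highest ratio was that of Clspn, at 10.2 CPM in the control and 14.2 CPM in Brca1 vKO, a ratio of 1.39 (1.23 to 1.57). These cells had a median of 7.40 cycling-gene UMIs per 10000 in the control and 8.59 in Brca1 vKO. The part of this in the ratios was not tested.

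The other genes of these branches were read from lists. Of 18 partners of ATR and CHK1 (the clamp Rad9a, Hus1 and Rad1, replication protein A, Timeless, Tipin and others), 15 were higher in control germ than Sertoli cells and 0 lower, with Cdc45, part of the replicative helicase, at 69.7 against 12.3 CPM. Over all genes tested 41.6% were higher and 29.3% lower. Of 14 partners of ATM and CHK2, 7 were higher, near the share of all genes, and 2 lower, among them the histone gene H2afx, at 61.7 CPM in germ and 229 CPM in Sertoli cells. Of 14 genes of the cyclin-dependent kinase switch that WEE1 acts on, 10 were higher in germ cells and 2 lower. The cyclin gene Ccnb1 was at 215 against 37.5 CPM, whereas Cdk1, the kinase itself, was at 71.5 against 165.9 CPM and its activating phosphatase Cdc25b at 4.48 against 10.6 CPM, the same order as Wee1.

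Between cycling and non-cycling cells of the control, 8 of 18 ATR partners, 2 of 14 ATM partners and 10 of 14 switch genes were higher in germ cells, and 10, 3 and 10 in Sertoli cells, with none lower in either. Of all genes 13.1% were higher in cycling germ and 6.9% in cycling Sertoli cells, and the ATM partners in germ cells were near that share. The mitotic kinase gene Plk1 had the largest ratio in both, at 8.99 in germ and 34.1 in Sertoli cells. Between Brca1 vKO and control germ cells, 1 of 18 ATR partners was lower (Hus1, at 14.5 against 23.1 CPM, ratio 0.628), 0 of 14 ATM partners were called, and of 14 switch genes 1 was higher (Ccne1, 22.1 against 14.6 CPM) and 2 were lower (Ccne2, 14.5 against 26.5 CPM, and Cdk2, 15.9 against 25.3 CPM), where 9.49% of all genes were higher and 13.2% lower. Within GFRA1/RET-high cells Hus1 was at 0.746 (0.595 to 0.9304), Ccne2 at 0.841 (0.668 to 1.05) and Cdk2 at 0.786 (0.625 to 0.983), none of them called, while Ccne1 was at 1.91 (1.54 to 2.36) and called higher.

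Genes whose pattern was most like each member were taken from the correlation of log2(CPM + 10) over 22 sums of library, class and cycling state among 13360 genes. The sums share libraries and cells, so that the correlations are a description. Chek1 was nearest to Mcm3, Orc6 and Mcm4 (Pearson r of 0.97 each), genes of replication licensing, and Clspn to Esco2, Cenpf and Bub1 (0.99 and 0.98). Mcm3, Mcm4, Cenpf and Bub1 were in the lists that define cycling cells. Chek2 was nearest to Mdm1, Smchd1 and Rad18 (0.95 to 0.97), Etaa1 to Inip, Rad50 and Smarcc1, and Wee1 to Rfwd3, Mlf1 and U2surp, with the lower value of 0.89. Atm was nearest to Taf1, Trim37 and Dck, Atr to Smarca4, Strbp and Dock3, Topbp1 to G2e3, Sgo2a and Timeless, and Mdc1 to Kntc1, Kif11 and Dscc1, all between 0.94 and 0.98. Kif11 was also in the lists that define cycling cells. Atrip had the weakest likeness, to Tbc1d32 (0.87), Cgrrf1 and 4930402H24Rik. Among the members, Atm and Etaa1 (0.93) and Chek1 and Clspn were close.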

How the data were processed

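Testes at postnatal day 7 were profiled by the authors with 10x Chromium droplet libraries, 1 from a control littermate and 1 from a Brca1 vKO mouse, and more Brca1 vKO than control cells were loaded. The deposited values are raw UMI counts per gene and barcode, which the authors made with Cell Ranger 6.0.2 against mm10; the build and tool come from the submitters' processing notes and the study's methods. The tables held 5812 control and 9456 Brca1 vKO barcodes with 120568700 and 165062097 UMIs.

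The study's limits of 750 genes and 10% mitochondrial UMIs were applied. A cell needed at least 2 UMIs of a marker pair and a share per 10000 UMIs of at least 2.2 (germ), 5 (Sertoli), 8 (stromal) or 13 (myoid), limits set after seeing the data. Cells that passed several gates (303 control, 445 Brca1 vKO) or none (193 and 334) were left out. Germ cells were split by the larger of Gfra1 plus Ret and Kit plus Stra8, with at least 2 UMIs. Raw counts were summed over the cells of a group, so deep cells weigh more, and divided by the group's UMIs. Intervals are exact Poisson for a level and exact binomial (conditional on the total) for a ratio, at 95%. They were run on simulated sums drawn from the same Poisson model, without variation between cells. That run checks the code and cannot show how the intervals hold for real cells. There is 1 library per genotype, so no test was run and a fold is called only by the rule of size. Doublets were kept and removed in an alternative. Alternatives were other gates, clusters, cycling limits, scores, scalings and thinning.

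Named genes were the 10 members, Brca1 as a check, and for each member the 3 genes of nearest pattern with at least 500 UMIs; of the partner lists, those called or of extreme ratio. Members and lists were chosen with earlier results of these data known. Promoter sequences come from RefSeq (GRCm38.p6), gene positions from the GRCm38 annotation. Analyses used Python 3.11.15, numpy 2.4.6, scipy 1.17.1, scanpy 1.11.5 and leidenalg 0.10.2, and edgeR 4.0.16 in R 4.3.3 for TMM scaling factors alone.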

Additional observations from a re-analysis of the deposited data

Results flagged for a closer look

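Topbp1 and Clspn had Brca1 vKO over control ratios on opposite sides of 1 in germ and stromal cells. For Topbp1 the ratio was 1.25 (1.17 to 1.34) in germ cells and 0.817 (0.732 to 0.912) in stromal cells. For Clspn it was 1.11 (1.04 to 1.18) and 0.795 (0.685 to 0.923). With 1 library per genotype the difference between the classes was not tested, and the intervals cover counting error only. All 4 ratios were within 1.5-fold. Fewer stromal cells were cycling in Brca1 vKO, 8.28% against 11.5%, and both genes were higher in cycling stromal cells. Neutrophil genes were at 0.560 CPM in control and 73.3 CPM in Brca1 vKO stromal cells, and haemoglobin genes at 1308 and 119 CPM. The part of these values in the stromal ratios was not tested.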

How the results depend on the processing

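No paired analysis was possible because each genotype had 1 library. Of 199 recomputed counts of members called, 179 were within 1.5 times the reported count, including all of germ over Sertoli cells. The other 20 were as follows. Thinning every cell to 2000 UMIs, which leaves fewer members with enough UMIs, took the members higher in cycling cells to 3 in control and 1 in Brca1 vKO germ cells, 1 and 3 in stromal cells and 0 and 1 in myoid cells, gave 2 calls in GFRA1/RET-high and 1 in stromal cells between genotypes, and 0 between germ subsets in Brca1 vKO, where Topbp1 turned to 0.853 (0.368 to 2.42). A cycling limit of 45 gave 3 in control germ cells. In Brca1 vKO germ cells a mitochondrial limit of 5% gave 2 and TMM scaling 8 members higher in cycling cells. Between germ subsets of Brca1 vKO the mitochondrial limit and a split at 3 UMIs each gave 0. Between genotypes, KIT/STRA8-high cells gave 1 call with doublets removed, 1 with clusters and 2 with TMM scaling. Non-cycling cells alone gave 1 in germ and 1 in GFRA1/RET-high cells, and cycling cells alone 1 in myoid cells. The cause of the TMM, doublet and cluster differences was not tested.

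Of 1913 single member ratios, 1698 stayed within the counting interval of the reported value, 214 moved out of it and 1 turned direction, the Topbp1 value given here. The alternatives differed widely. With thinning to 2000 UMIs 48 of 113 stayed and 64 moved, and with non-cycling cells alone 21 of 50 moved. With no filter on cells, and with doublets removed, all 180 stayed. Wee1 in germ over Sertoli cells of the control lay at the limit and was called lower under 6 alternatives, while in Brca1 vKO its call was lost under 1, at 0.671. Leaving out a replicate could not be done with 1 library per genotype. Counts limit the Brca1 vKO non-cycling germ cells (33 cells) and KIT/STRA8-high cells (17) most.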
